A study of Homo sapiens with 12 samples.

Results

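The enhancer map of Huh7 cells given 15 µM choline was read from the H3K27ac and H3K4me1 summit lists at that dose. Members were the summits of both lists on chromosomes 1 to 22 and X, 378507 of the 759609 summits in the 4 lists of the series: 29305 of H3K27ac and 349202 of H3K4me1. Each summit was set against the other mark's list, and a partner meant a summit of the other mark within 1 kb. Huh7 is a human hepatocellular carcinoma line. Its cells were grown in DMEM made without choline chloride, with B-27 in place of serum, and choline chloride was added back to 15 µM. The comparison pair came from the same medium with 0 µM choline. The series has 12 samples and asked how choline supply bears on enhancers and on the transcription factor KLF5. The labels give collection 48 h after siRNA transfection and do not say whether the ChIP-seq cultures were transfected. Each mark and dose had 1 library, so no difference below has a replicate check, and none has a p-value. Read depth is unknown.

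H3K27ac is laid down by the acetyltransferases EP300 and CREBBP and marks active promoters and active enhancers. H3K4me1 is laid down mainly by KMT2C and KMT2D and marks enhancers, both active ones and ones described as primed or poised, which lack H3K27ac. Active transcript starts carry H3K4me3 instead, with H3K4me1 on the shoulders of the promoter. A liver cell's enhancers are known to be set up largely by HNF4A, FOXA and C/EBP factors.

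Genes were placed in classes by the summits within 1 kb of either annotated end: both marks at 1 end, H3K27ac only, H3K4me1 only, or neither. Strand was not used, so a marked end can be the transcript start or the opposite end of the gene. The class of a gene is therefore not a promoter state. H3K27ac only means that no end had both marks: 517 of the 1707 genes of that class (30.3%) had H3K4me1 at the other end, away from H3K27ac. The 250 bases before a RefSeq transcript start (GRCh38.p14) are shown for 2 genes of each class with a mark, to let the CG content be read in the letters. The 6 were picked from the named genes after their values were seen, and are not typical. HNF4A is a central transcription factor of hepatocytes and FGB the fibrinogen beta chain, both with both marks. AMACR, a racemase of bile acid and branched fatty acid metabolism, and NR2F1, an orphan nuclear receptor, had H3K27ac only. BDH1, an enzyme of ketone bodies, and ROCK2, a kinase of the actin skeleton, had H3K4me1 only. Sequences run 5′ to 3′, and capitals mark CG dinucleotides. The windows were chr20:44355449-44355698, plus strand for HNF4A, chr4:154562730-154562979, plus strand for FGB, chr5:34008051-34008300, minus strand for AMACR, chr5:93582972-93583221, plus strand for NR2F1, chr3:197573344-197573593, minus strand for BDH1 and chr2:11345438-11345687, minus strand for ROCK2.
HNF4A: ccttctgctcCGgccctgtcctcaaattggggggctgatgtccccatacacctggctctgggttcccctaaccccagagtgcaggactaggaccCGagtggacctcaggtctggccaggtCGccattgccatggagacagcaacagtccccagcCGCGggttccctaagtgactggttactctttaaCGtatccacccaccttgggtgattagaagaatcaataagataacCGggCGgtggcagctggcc
FGB: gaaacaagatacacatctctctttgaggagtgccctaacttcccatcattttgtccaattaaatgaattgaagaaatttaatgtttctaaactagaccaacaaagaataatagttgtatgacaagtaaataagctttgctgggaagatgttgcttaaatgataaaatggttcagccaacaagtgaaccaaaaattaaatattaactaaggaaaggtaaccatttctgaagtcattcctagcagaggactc
AMACR: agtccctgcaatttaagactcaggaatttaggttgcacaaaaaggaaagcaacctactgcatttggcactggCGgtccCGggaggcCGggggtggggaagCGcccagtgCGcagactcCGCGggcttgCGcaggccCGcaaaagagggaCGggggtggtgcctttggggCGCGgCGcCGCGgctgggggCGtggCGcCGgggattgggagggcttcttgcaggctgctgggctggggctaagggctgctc
NR2F1: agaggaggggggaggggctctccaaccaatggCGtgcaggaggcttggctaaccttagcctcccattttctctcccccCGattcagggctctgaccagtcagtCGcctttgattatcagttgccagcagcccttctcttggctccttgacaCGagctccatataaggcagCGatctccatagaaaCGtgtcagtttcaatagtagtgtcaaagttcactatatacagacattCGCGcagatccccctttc
BDH1: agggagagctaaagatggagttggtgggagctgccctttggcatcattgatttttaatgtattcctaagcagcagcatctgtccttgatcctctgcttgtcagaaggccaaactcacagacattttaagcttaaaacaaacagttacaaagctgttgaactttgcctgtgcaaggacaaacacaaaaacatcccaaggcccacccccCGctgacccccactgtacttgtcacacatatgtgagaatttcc
ROCK2: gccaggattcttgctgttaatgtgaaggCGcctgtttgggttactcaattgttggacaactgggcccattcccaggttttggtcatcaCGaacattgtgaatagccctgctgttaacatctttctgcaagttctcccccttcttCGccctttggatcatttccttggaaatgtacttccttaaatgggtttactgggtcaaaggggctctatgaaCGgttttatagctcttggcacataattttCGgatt
AMACR held 18 CG dinucleotides in its 250 bases, HNF4A and NR2F1 8 each, ROCK2 5, BDH1 1 and FGB 0. Over the 300 bases around the start, 5 of the 6 had a lower ratio of observed to expected CG dinucleotides than the lower quartile of their class. The nearest H3K27ac summit lay 136 bp from the AMACR start, 218 bp from that of HNF4A, 149 bp from that of FGB and 136 bp from that of NR2F1. It lay 16390 bp from the BDH1 start and 120155 bp from that of ROCK2.

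In the lists as deposited, which differ in length, most H3K27ac summits had H3K4me1 beside them, and few H3K4me1 summits had H3K27ac. Of the 29305 H3K27ac summits, 17157 (58.5%, exact Clopper-Pearson 95% interval 58.0 to 59.1, counting error only) had an H3K4me1 summit within 1 kb. By chromosome the share ran from 55.8% on chromosome 11 to 67.7% on X. For scale, 19.3% of the mapped span lay within 1 kb of an H3K4me1 summit. In the other direction 16831 of 349202 H3K4me1 summits (4.82%, 4.75 to 4.89) had an H3K27ac partner. The H3K4me1 list is the longer one and reaches down to a score of 1.30, against 5.01 for H3K27ac. With H3K4me1 held to scores of at least 5.01, which left 103202 summits, the shares were 47.3% and 11.6%. With the H3K4me1 list trimmed by score to the H3K27ac length, they were 31.6% and 25.4%.

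An H3K27ac summit without a partner was seldom far from H3K4me1. The 12148 such summits had their nearest H3K4me1 summit at a median of 1787 bp, 58.2% of them within 2 kb and 94.1% within 5 kb. In the whole H3K27ac list, 713 summits (2.43%) lay over 5 kb from H3K4me1. Summit lists hold peak tops without widths, so "H3K27ac only" describes tops over 1 kb apart and not the absence of H3K4me1 signal. In the other direction the partner list is far shorter, 29305 against 349202 summits. The median distance from H3K4me1 summits to the nearest H3K27ac summit was 45607.5 bp, and 48.1% lay over 50 kb away.

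Gene ends and distal places were spaced differently. Of 3470 H3K27ac summits within 1 kb of a protein-coding gene end, 54.1% (52.4 to 55.7) had a partner, against 58.8% (58.1 to 59.4) of 23509 distal summits, those over 2.5 kb from every gene end. The gene-end share was the lower one on 19 of 23 chromosomes. With H3K4me1 at scores of at least 5.01 the shares were 29.8% and 49.9%. The order depended on the distance: with partners counted within 2 kb it turned round, to 89.0% at gene ends and 81.6% at distal places. With partners within 5 kb the shares were 99.2% and 97.2%. The distances show the same. At gene ends the median distance to H3K4me1 was 938 bp, with 10.8% of summits under 250 bp and 31.0% between 500 and 1000 bp. At distal places the median was 788 bp, with 19.1% under 250 bp and 23.6% between 500 and 1000 bp. H3K4me1 on both sides within 1 kb was found for 5.39% of gene-end and 7.15% of distal H3K27ac summits. H3K4me1 summits themselves had an H3K27ac partner at 9.41% of gene-end and 4.31% of distal positions, higher at gene ends on 23 of 23 chromosomes.

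**Figure D1:**
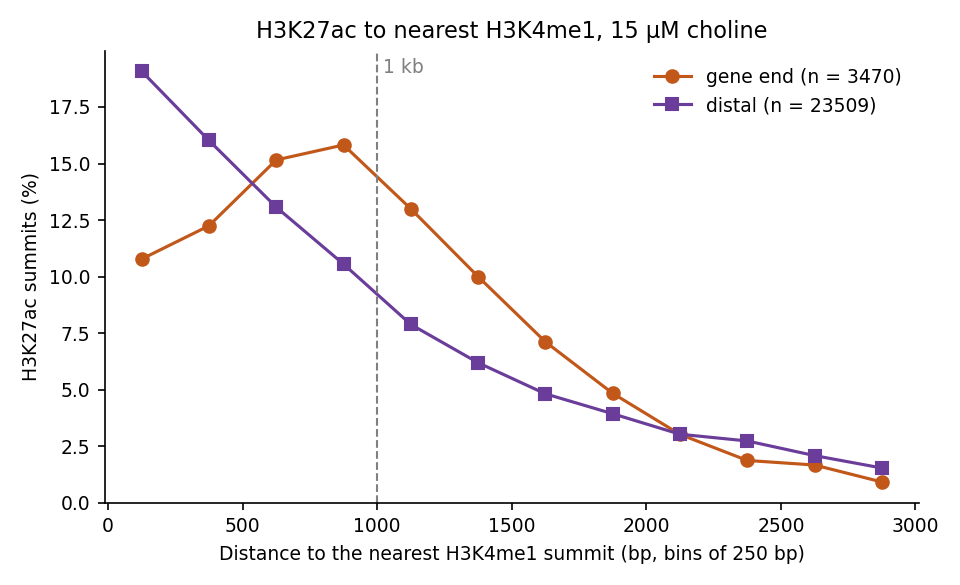
Distance from each H3K27ac summit at 15 µM choline to the nearest H3K4me1 summit (x axis, bp, bins of 250 bp) against the share of H3K27ac summits (y axis, percent), for 3470 gene-end and 23509 distal summits, with the 1 kb partner distance dashed. Distal summits are most frequent in the first bin (19.1%), and gene-end summits in the bin from 750 to 1000 bp (15.8%).

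Transcript starts gave the same picture with direction. RefSeq lists strand and starts for 15812 of the 19974 protein-coding genes. Of 22132 starts, 19027 were used after dropping those within 1 kb of one already kept for the same gene. H3K27ac lay within 1 kb of 2892 of them. At these starts H3K4me1 summits were scarcest in the 250 bp after the start, at 2.11 per 100 starts. They were most frequent 1000 to 1250 bp before it (15.6 per 100 starts) and 1500 to 1750 bp after it (15.2). H3K27ac summits were most frequent 250 to 500 bp before the start (23.4) and in the first 250 bp after it (23.1). At the 16135 starts without H3K27ac, H3K4me1 had a shallower dip, 3.27 per 100 starts after the start and 10.1 at 1000 to 1250 bp. The H3K4me1 shoulders lay close to the 1 kb limit that decides the class.

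**Figure D2:**
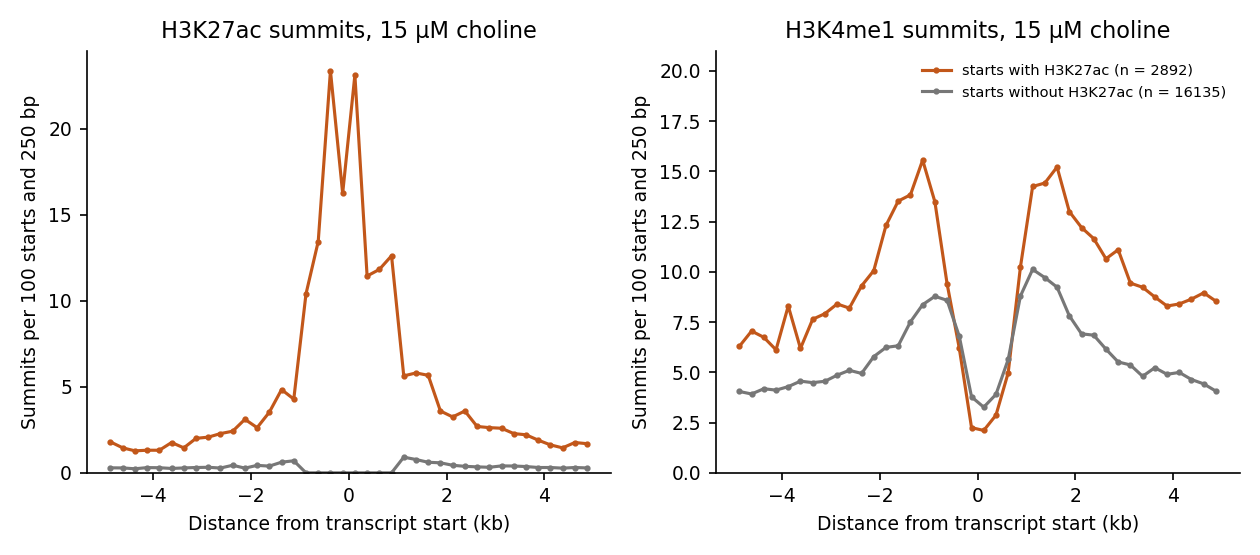
Summits per 100 transcript starts in each 250 bp (y axes) by distance from the start (x axes, kb, negative before the start), for H3K27ac on the left and H3K4me1 on the right, at 2892 starts with and 16135 without H3K27ac within 1 kb. The left panel is 0 within 1 kb for the second group by definition. The right panel shows the dip at the start (2.11 with H3K27ac) between shoulders of 15.6 and 15.2.

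High-scoring H3K4me1 summits had H3K27ac more often than low-scoring ones, and H3K27ac scores hardly differed with H3K4me1. Scores are the authors' own and were compared here only within a list. Elsewhere the lowest H3K27ac score also served as a limit on the H3K4me1 list. That limit sets scores of different libraries side by side, and whether they share a scale was not tested. H3K4me1 summits with an H3K27ac partner had a median score of 10.5, against 3.33 for those without. In the highest decile of the H3K4me1 list, above a score of 10.8, 23.2% had H3K27ac within 1 kb, against 0.891% in the lowest decile. H3K27ac summits with and without H3K4me1 had medians of 10.3 and 10.5. Over the deciles of the H3K27ac list the share with a partner ran between 53.2% and 62.0%, lowest in the highest decile. Deciles of H3K4me1 were also taken separately at gene ends and at distal places. The highest of these held 24.3% with H3K27ac at gene ends and 23% at distal places. They cover unlike scores, from 8.44 up at gene ends and from 10.9 up at distal places. In the lowest the shares were 6.96% and 0.590%.

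**Figure D3:**
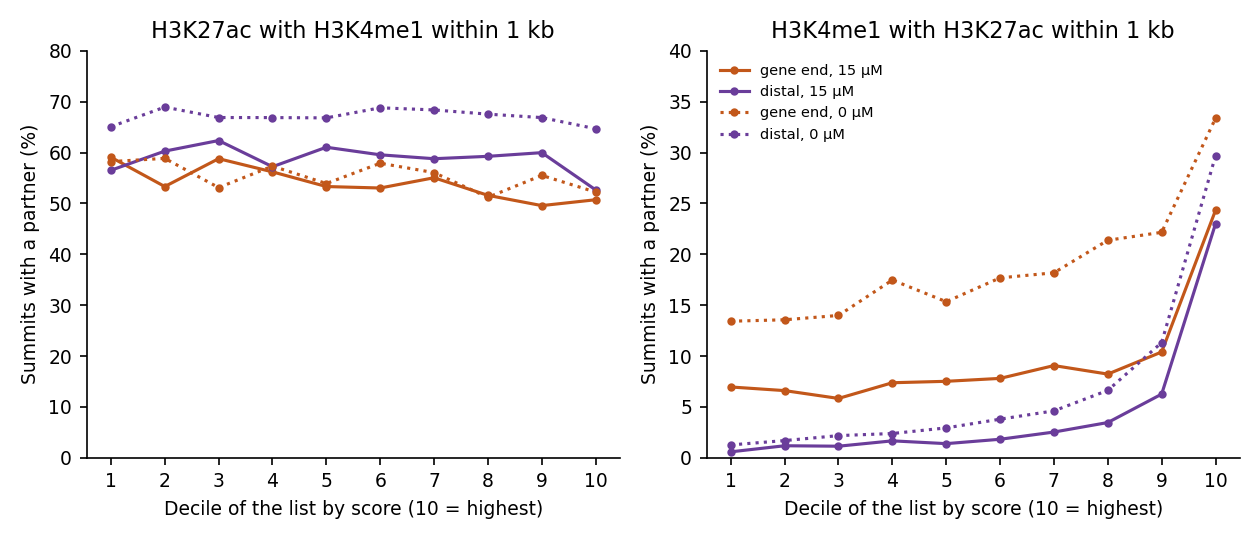
Share of summits with a partner within 1 kb (y axes, percent) by decile of score (x axes, 10 the highest), for H3K27ac on the left and H3K4me1 on the right. Deciles were taken separately for each place and dose, so the same decile covers different scores. Colours give gene ends and distal places, solid lines 15 µM and dotted lines 0 µM choline. The H3K4me1 share climbs to 23% in the highest distal decile at 15 µM, and the H3K27ac share at 15 µM stays between 49.6% and 62.4%.

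Of 19974 protein-coding genes, 1521 had both marks at an end (7.61%), 1707 had H3K27ac only (8.55%), 8525 had H3K4me1 only (42.7%) and 8221 had neither (41.2%). H3K27ac, with or without H3K4me1, was at an end of 16.2%. These percentages are the background for every gene group below. At 0 µM the classes held 14.3%, 14%, 33.6% and 38.1%, and 28.3% of genes had H3K27ac at an end. Single ends with H3K27ac had H3K4me1 more often than ends without it, 45.7% (44.1 to 47.4) of 3440 against 31.0% (30.5 to 31.4) of 36508. At annotated transcript starts these shares were closer, 44.57% of 2892 and 39.98% of 16135. The split between both marks and H3K27ac only depends on the distance allowed: at 2 kb from the end, 3638 genes had both marks and 401 H3K27ac only.

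The genes with the highest-scoring H3K27ac summit at an end with both marks were TMT1A, HNF4A, MRPS33, MIA, UBP1, TGFBR2, FGB, B9D2, SH3PXD2A and ITIH2, with scores from 39.8 to 54.5. For these and the next named genes the marked end is not always the transcript start. HNF4A had its H3K27ac summit at position 44355481 of chromosome 20 (score 43.6), 219 bp from an H3K4me1 summit scoring 3.73. FGB had its own at position 154563129 of chromosome 4 (40.6), with H3K4me1 720 bp away. ITIH2, a heavy chain of the plasma inter-alpha-trypsin inhibitor, had a score of 39.8 and H3K4me1 99 bp away. TGFBR2, the type II receptor for TGF-beta, had a score of 40.7 with H3K4me1 (score 1.94) 997 bp away, at the limit of the class. Of these 10 genes, 6 had both marks at 0 µM as well, FGB and SH3PXD2A had H3K27ac only, and MRPS33 and ITIH2 H3K4me1 only.

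The corresponding genes with H3K27ac only were AMACR, ABCC3, C2orf72, TRIM34, TERB2, KNTC1, SMLR1, ASPRV1, NCBP1 and NR2F1, with scores from 41.6 to 56.3. ABCC3, a transporter of bile acid and drug conjugates, had an H3K27ac summit scoring 53.6 at position 50693039 of chromosome 17. It lay beyond the gene end of higher coordinate, 50692253, with the nearest H3K4me1 summit 1870 bp away. KNTC1, a kinetochore protein, had H3K4me1 at 1447 bp. Over the 10 genes this distance ran from 906 bp (NR2F1) to 2097 bp (TERB2). NR2F1 and AMACR had H3K4me1 within 1 kb of the summit (906 and 941 bp), but not within 1 kb of the gene end, which sets the class. ABCC3, SMLR1 and NCBP1 had H3K4me1 at the opposite end, with scores of 3.35, 2.20 and 2.83. At 0 µM, where 14.3% of all genes had both marks, 7 of the 10 did, NCBP1 and NR2F1 H3K27ac only, and ABCC3 H3K4me1 only.

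The highest-scoring H3K4me1 summits at ends without H3K27ac belonged to C7orf25, C9, LSM3, TIGD2, RIN2, ZCCHC3, NCOA2, BDH1, POLM and STRA8, with scores from 31.2 to 36.4. C9, the last complement component of the membrane attack complex, had its H3K4me1 summit (36.1) 116686 bp from the nearest H3K27ac. For POLM, a DNA repair polymerase, this distance was 203381 bp, and for C7orf25 575640 bp. LSM3, a splicing factor, and TIGD2 were the exceptions, with H3K27ac 473 and 914 bp from the H3K4me1 summit but beyond 1 kb of the end. ZCCHC3 had 0 H3K27ac summits within 50 kb of its ends and 16 of H3K4me1. At 0 µM it had both marks, with 5 H3K27ac summits in that window.

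Plasma protein and liver transcription factor genes had H3K27ac at an end more often than all genes did. Among 28 plasma protein genes of hepatocytes, 12 had both marks, 8 H3K27ac only, 6 H3K4me1 only and 2 neither, that is 71.4% with H3K27ac against 16.2% over all genes. Both marks were at ALB, the main plasma protein, with its best H3K27ac summit at 31.2, at AFP (8.58), its fetal counterpart, and at TTR (7.00), the thyroxine carrier. Their best H3K4me1 scores were 1.43, 8.35 and 9.50, so the class of ALB rests on a summit near the lowest score of that list, 1.30. The apolipoprotein genes APOA1 (9.46), APOA2 (32.2) and APOB (11.4) had H3K27ac only. SERPINA1, which encodes alpha-1-antitrypsin, HP, for haptoglobin, and SERPINC1, for antithrombin, had H3K4me1 only. SERPINA1 still had 13 H3K27ac summits within 50 kb, and HP 1. F9 and PLG, clotting factor IX and plasminogen, had neither mark at an end and 0 H3K27ac summits within 50 kb.

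Of 24 liver transcription factor genes, 9 had both marks, 5 H3K27ac only, 4 H3K4me1 only and 6 neither (58.3% with H3K27ac). HNF4A, FOXA1 and FOXA2 had both, with best H3K27ac scores of 43.6, 24.5 and 17.6 and best H3K4me1 scores of 3.73, 9.50 and 26.9. ONECUT2, CEBPB (17.6) and PROX1 (12.6) had H3K27ac only, CEBPB with H3K4me1 (9.52) at its other end. NR1H4, the bile acid receptor, had neither mark at an end, but 39 H3K27ac summits within 50 kb, 13 of them with H3K4me1 within 1 kb. ONECUT1 had neither at an end and 10 in its window, whereas PPARA, the fatty acid receptor, had 0. Metabolic enzymes of hepatocytes were unlike the other 2 liver lists: of 20, 4 had both marks, 0 H3K27ac only, 10 H3K4me1 only and 6 neither. ARG1, the arginase of the urea cycle, TAT, tyrosine aminotransferase, and GLUL, glutamine synthetase, had both, with best H3K27ac scores of 17.1, 25 and 5.13. The last lies near the lowest score of that list, 5.01. For H3K4me1 the best scores of the 3 genes were 31.2, 19.7 and 2.25. OTC, ASS1 and G6PC1 had H3K4me1 only, with 3, 0 and 0 H3K27ac summits in their windows.

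**Figure D4:**
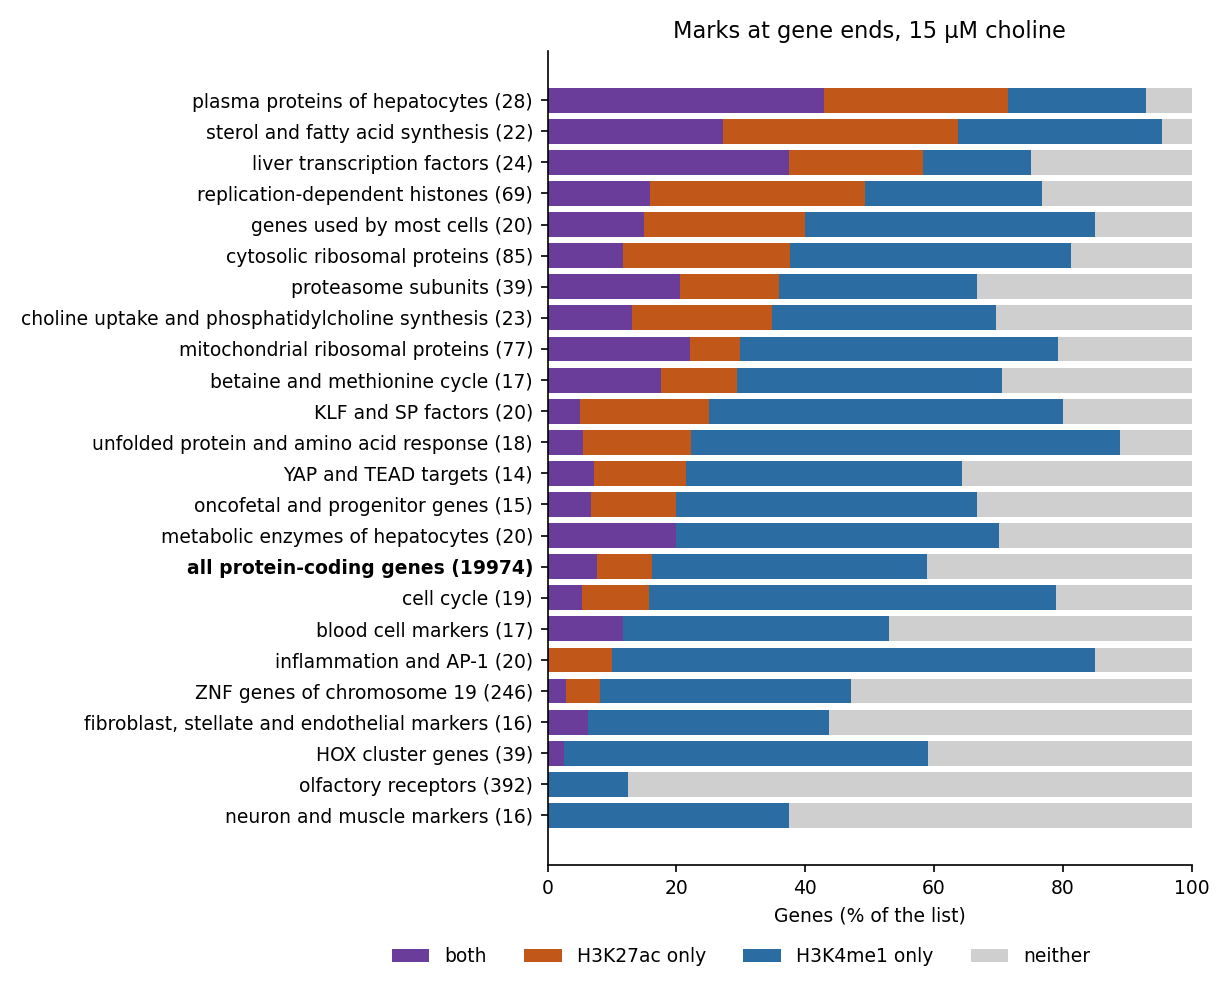
Share of each gene list (x axis, percent of its protein-coding members, number in brackets) by class of gene end at 15 µM choline, ordered by the share with H3K27ac, with all 19974 protein-coding genes in bold. Plasma proteins stand highest, with 71.4% carrying H3K27ac, against 16.2% of all genes and 0 of 392 olfactory receptors.

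Choline enters cells through carriers and is turned into phosphatidylcholine by choline kinase, the CTP-using PCYT1 enzymes and a choline phosphotransferase. Of 23 genes of uptake and synthesis, 3 had both marks, 5 H3K27ac only, 8 H3K4me1 only and 7 neither. At 0 µM, 12 of the 23 had H3K27ac at an end, where 28.3% of all genes did. At 15 µM the share was 34.8%, against 16.2% of all genes and 40% of the 20 genes used by most cells. The class with H3K27ac only held the kinases CHKA (best score 5.53) and CHKB (17.3), and PCYT1A (12.3), the rate-limiting enzyme of the route. The CHKA score lies near the lowest of the H3K27ac list, 5.01. CHKB had an H3K4me1 summit (6.06) at its other end. CEPT1 (13.2), a terminal phosphotransferase, SLC44A5 (9.62), of the choline transporter-like family, and ETNK1 (6.74), an ethanolamine kinase, had both marks. Their best H3K4me1 scores were low (2.60, 4.40 and 1.69), and with H3K4me1 at scores of at least 5.01 the list had 0 with both and 8 with H3K27ac only. CHKA had 20 H3K27ac summits within 50 kb, 11 with H3K4me1, and CHKB 1. The transporter genes SLC44A2 and SLC44A3 and PCYT1B, a close relative of PCYT1A, had H3K4me1 only. SLC44A1, the ubiquitous choline transporter, had neither mark at an end and 10 H3K27ac summits in its window, 6 of them with H3K4me1. In the betaine and methionine cycle list 3 of 17 had both marks, 2 H3K27ac only, 7 H3K4me1 only and 5 neither (29.4% with H3K27ac). SARDH (24.3), sarcosine dehydrogenase, MAT2B (8.36) and AHCY (9.85) had both, and MAT2A (17.6), the methionine adenosyltransferase outside the adult liver, had H3K27ac only. CHDH, which oxidises choline to betaine aldehyde, and MAT1A, the adult liver adenosyltransferase, had neither.

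Sterol and fatty acid synthesis genes stood next to the plasma proteins: of 22, 6 had both marks, 8 H3K27ac only, 7 H3K4me1 only and 1 neither (63.6% with H3K27ac). FDPS (27.5), the farnesyl diphosphate synthase, and ACACA (10.7), the acetyl-CoA carboxylase of fatty acid synthesis, were among those with both. H3K4me1 reached a score of 3.72 at FDPS and 2.93 at ACACA. SREBF2 (10.1), HMGCS1 and IDI1 had H3K27ac only, and SREBF1, INSIG1 and LSS H3K4me1 only. KLF5 was the one of 20 KLF and SP genes with both marks at a gene end, and at annotated transcript starts 2 of 19 had both. KLF3 (7.13), KLF6 (9.01) and SP1 (29.7), with SP4, had H3K27ac only, and KLF2, KLF4 and KLF7 were among 11 with H3K4me1 only. KLF5 had 12 H3K27ac summits within 50 kb of its ends, 10 with H3K4me1 within 1 kb. The highest (21.5) lay at position 73040968 of chromosome 13, 515 bp from H3K4me1. The window held 39 H3K4me1 summits. At 0 µM it held 6 and 30.

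Genes of general cell functions split by list. Of 69 replication-dependent histone genes, 11 had both marks and 23 H3K27ac only, and of 85 genes named as cytosolic ribosomal proteins 10 and 22. Mitochondrial ribosomal protein genes went the other way, 17 with both and 6 with H3K27ac only of 77, and proteasome genes had 8 and 6 of 39. With H3K4me1 at scores of at least 5.01 this turned round, to 6 and 17 for the mitochondrial ribosome and 4 and 10 for the proteasome. At that limit the plasma protein list had 8 with both and 12 with H3K27ac only, and the liver factors 4 and 10. Histone genes lie in clusters whose neighbours share summits, so these members are not independent. The cell cycle list had 1 with both, 2 with H3K27ac only and 12 of 19 with H3K4me1 only. Inflammation and AP-1 genes had 0, 2 (NFKB1 and NFKBIA) and 15 of 20, with RELA, RELB and STAT3 among the 15. The unfolded protein and amino acid response list had 1, 3 and 12 of 18. In the YAP and TEAD target list these counts were 1, 2 and 6 of 14, and in the oncofetal and progenitor list 1, 2 and 7 of 15. H3K4me1 only made up 63.2% of the cell cycle, 75% of the inflammation and 66.7% of the unfolded protein list, against 42.7% of all genes. It made up 42.9% of the YAP and TEAD and 46.7% of the oncofetal list. Among 20 genes used by most cells the classes held 3, 5, 9 and 3. H3K27ac was at an end of 40% of these, 49.3% of histone, 37.6% of cytosolic ribosomal, 29.9% of mitochondrial ribosomal and 35.9% of proteasome genes. Over all genes it was 16.2%. The cell cycle (15.8%), oncofetal (20%), YAP and TEAD (21.4%) and unfolded protein (22.2%) lists were near that share, and the inflammation list had 10%.

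The remaining lists mostly had H3K4me1 only or neither mark, as all genes did (42.7% and 41.2%). HOX genes had H3K4me1 only in 22 of 39 (56.4%), and HOXC9 was the 1 with H3K27ac (2.56%, against 16.2% of all genes). Zinc finger genes of chromosome 19 had 7 with both, 13 with H3K27ac only, 96 with H3K4me1 only and 130 with neither, of 246. That made 8.13% with H3K27ac, 39.0% with H3K4me1 only and 52.8% with neither. Olfactory receptor genes had 0 of 392 with H3K27ac and 49 (12.5%) with H3K4me1 only. As a check of the label, 9 of 10 hepatocyte markers, all plasma protein or transcription factor genes, had H3K27ac at an end (SERPINA1 did not), and their windows held 2 to 44 H3K27ac summits, 202 in sum. Of 9 fibroblast, stellate and endothelial markers 1 did (PECAM1), with 0 to 9 summits and 18 in sum. Of 6 blood markers 1 did (CD3E), with 0 to 3 and 7 in sum, and of 6 neuron and muscle markers 0, with 0 to 1 and 2 in sum. These sums come from marker lists of unequal length. ALB (44) and AFP (42) are neighbours that partly share summits, so the hepatocyte sum counts some summits more than once. The 20 metabolic enzymes of hepatocytes were near the background, with 4 (20%) against 16.2%, and CPS1 and PCK1 among those without. In the longer lists of the other cell types, 1 of 16, 2 of 17 (CD3E and LYZ) and 0 of 16 had H3K27ac at an end.

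Distal H3K27ac summits reached higher scores without an H3K4me1 partner than with one. The 10 highest with a partner scored from 68.3 to 91.5 and lay nearest to ALDH1A1, ABHD2, LGSN, KIAA0232, IFNGR1, EGFR, CMTM8, LIMA1, MECOM and BBOX1. The one near ALDH1A1, a retinal dehydrogenase, stood at position 72983800 of chromosome 9, 30747 bp from the gene and 442 bp from H3K4me1. The one inside EGFR, the epidermal growth factor receptor gene, scored 77.3, with 7 H3K27ac summits within 5 kb. The 10 highest without a partner scored from 70.2 to 116 and lay nearest to B4GAT1, PGM1, CTNND1, SPTLC3, ATP9A, NUBPL, AFP, HMGA2, TFPI and GAS2. The one near B4GAT1, a glycosyltransferase of dystroglycan, was at position 66351235 of chromosome 11, 3606 bp from the gene, with H3K4me1 1901 bp away. The one 3716 bp from AFP scored 82.7, with H3K4me1 2266 bp away. In these 10 the nearest H3K4me1 summit lay 1227 to 4572 bp away. Over the whole list the scores overlapped, with distal medians of 10.3 with and 10.4 without a partner.

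The 10 highest distal H3K4me1 summits without a partner scored from 58.8 to 89.5, and most of them bordered H3K27ac. They lay nearest to NUBPL (at 2 places), CAPRIN2, CPEB4, FRY, ZNRF3, BBOX1, PACS1, CTNND1 and THRB. At 5 of them H3K27ac stood 1031 to 1360 bp away, just outside the partner distance. The summit inside CPEB4, a regulator of mRNA polyadenylation, had H3K27ac at 1083 bp and 5 H3K27ac summits within 5 kb. The 3 with 0 H3K27ac within 5 kb were the one near CAPRIN2 (nearest H3K27ac 136121 bp), the one inside NUBPL (138741 bp) and the one inside BBOX1 (28284 bp). CTNND1, the p120 catenin gene, held an H3K27ac summit of 102 at position 57778440 of chromosome 11 and an H3K4me1 summit of 59.0 at position 57782683, 4243 bp apart.

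Windows of 50 kb around the ends showed where summits were numerous. A longer gene has a larger window, until the stretches around its ends no longer meet and its middle lies outside. Counts were not divided by window size, so the rankings below favour long genes. VMP1, a membrane protein of autophagy, had the most H3K27ac summits with a partner, 23 of 42, followed by CCDC117 (22 of 36), ELL2 (21 of 32), NECTIN2 (21 of 31) and TLE1 (21 of 50). EGFR and PIGL had 20 each, and AGBL3, ASPRV1 and COBLL1 19 each. LGR4, an R-spondin receptor of the Wnt pathway, had the most without a partner, 39 of 47. It was followed by LOC110384692 (29 of 36), TLE1 (29 of 50), AFP (27 of 42), ACTN4, MEGF9 and NR1H4 (26 each), ADGRG6 (25), FNDC3B and RAB8B (23 each). ALB had 44 H3K27ac and 20 H3K4me1 summits, and AFP, its neighbour, 42 and 23, partly the same ones. Over all genes the median window held 1 H3K27ac and 21 H3K4me1 summits, and 9746 genes had no H3K27ac in it.

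Other genes had windows full of H3K4me1 with 0 H3K27ac, the middle of the longest genes not being counted. FOXO1, a transcription factor of the insulin pathway, had 70 H3K4me1 summits, CTIF and MBNL2 69 each, RELL1 and UBL3 67 each, ROCK2 65, PTPN1 and RRAS2 64 each, RAB10 63 and IGSF3 62. MBNL2, a splicing regulator, had an H3K4me1 summit of 28.3 at an end. At 0 µM the windows of these 10 genes held 0 to 6 H3K27ac summits and 54 to 82 of H3K4me1. On a grid of 200 kb bins, 14126 bins had H3K4me1 and 8365 of them (59.2%) had no H3K27ac. The median count of H3K4me1 was 39 in bins with both marks and 10 in bins without H3K27ac. The 5 fullest bins without H3K27ac held 77 to 87 H3K4me1 summits. The fullest had its centre 557049 bp from MYC, in a stretch without protein-coding genes (87). The others lay in CDKAL1 (80), in ROCK2 (78), in P3H2 (78) and across STRBP, CRB2 and DENND1A (77). At 0 µM these 5 bins held 56 to 87, with 1 to 4 H3K27ac summits each.

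**Figure D5:**
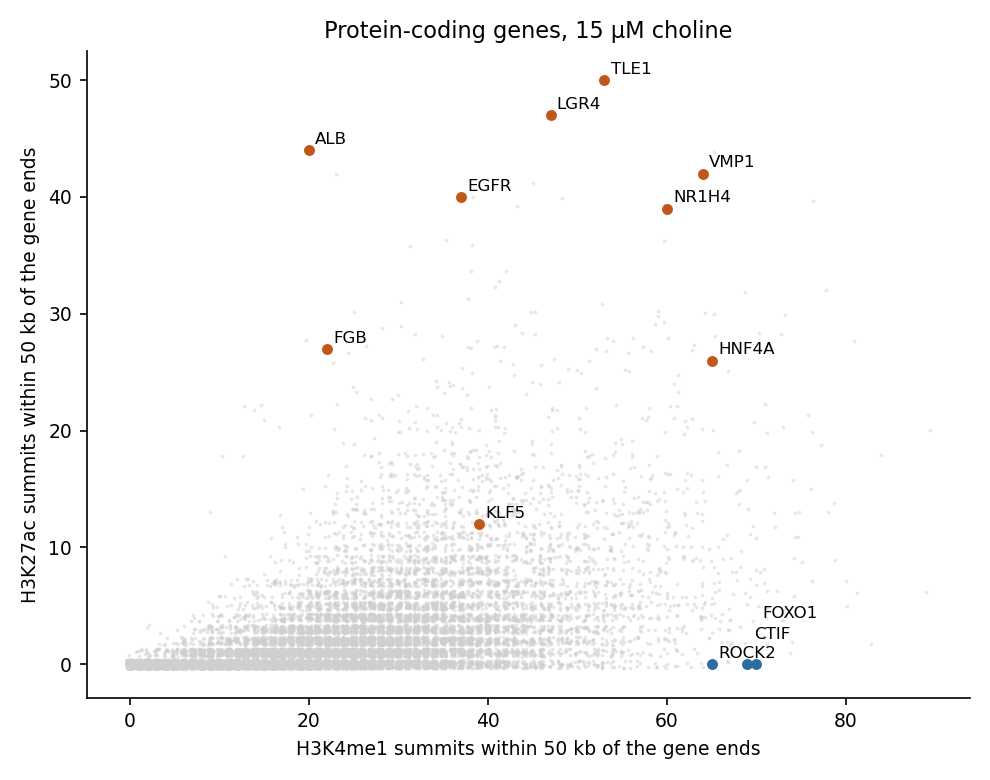
H3K27ac summits (y axis) against H3K4me1 summits (x axis) within 50 kb of the ends of each of 19974 protein-coding genes at 15 µM choline, 1 grey point a gene, spread by less than 1 count to show overlaps. Named genes are placed at their counts: TLE1 (53 and 50), LGR4 (47 and 47) and ALB (20 and 44) stand high, and FOXO1 (70 and 0), CTIF and ROCK2 lie on the axis.

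MicroRNA hairpins fell into the same classes, taken at the middle of the hairpin. Of 1558 RefSeq hairpins, 41 had both marks (2.63%), 29 H3K27ac only (1.86%), 390 H3K4me1 only (25%) and 1098 neither. Those shown were chosen after the values were seen, as microRNAs known for liver or liver cancer. The mature sequences run 5′ to 3′ with the seed, bases 2 to 8, in capitals, and the 4 seeds differ.
hsa-miR-21-5p: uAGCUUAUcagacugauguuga
hsa-miR-192-5p: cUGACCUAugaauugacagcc
hsa-miR-194-5p: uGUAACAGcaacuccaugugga
hsa-miR-122-5p: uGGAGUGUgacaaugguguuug
MIR21, widely overexpressed in tumours, had both marks, with an H3K27ac summit scoring 20.1 and 8 H3K27ac summits within 5 kb. It lies beside the end of VMP1, so it shares the summits of that window. MIR192 and MIR194-2, liver and gut microRNAs from 1 cluster, shared an H3K27ac summit scoring 8.25 and had both marks. MIR122, the most abundant hepatocyte microRNA, had H3K27ac 34 bp from the hairpin's middle (10.8) and its nearest H3K4me1 at 1737 bp, so it was classed as H3K27ac only.

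Promoter sequence differed between the classes. Over the 300 bases from 250 before to 50 after the start, the median ratio of observed to expected CG dinucleotides was 0.861 at 1603 starts with H3K27ac only. It was 0.801 at 1289 with both marks, 0.735 at 6451 with H3K4me1 only and 0.639 at 9684 with neither. The median GC content was 64.7%, 61.7%, 62.7% and 60.3% in that order. The ETS-type motif CCGGAAG, searched on both strands, was in 21.6% (19.6 to 23.7) of H3K27ac-only, 18.8% (16.7 to 21) of both-marked, 13.8% of H3K4me1-only and 9.64% of the other promoters, against 12.7% of all. The GC box GGGCGG was in 68.3%, 60.4%, 57.7% and 49.9%, against 54.8%. TATAAA ran the other way, 6.11%, 8.84%, 8.94% and 11.8%, against 10.2%. The HNF4-type motif CAAAGTCCA was rare, in 1.09% (0.595 to 1.82) of both-marked promoters, 14 of 1289, against 0.357% of all. The KLF-type CACCC was in 58.3% of both-marked and 61.9% of H3K27ac-only promoters, against 62.5%. A match is a description of the letters and not a bound site. The choline kinase gene CHKB (H3K27ac only) and FDPS (both marks) show the GC-rich motifs, with GGGCGG and CCGGAAG on either strand in capitals. They cover the 250 bases before the start, chr22:50582850-50583099, minus strand and chr1:155308616-155308865, plus strand.
CHKB: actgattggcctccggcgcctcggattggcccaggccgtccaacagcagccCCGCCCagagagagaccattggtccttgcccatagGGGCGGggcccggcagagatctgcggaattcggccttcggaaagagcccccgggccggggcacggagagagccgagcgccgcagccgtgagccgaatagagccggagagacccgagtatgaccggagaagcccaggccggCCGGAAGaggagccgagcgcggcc
FDPS: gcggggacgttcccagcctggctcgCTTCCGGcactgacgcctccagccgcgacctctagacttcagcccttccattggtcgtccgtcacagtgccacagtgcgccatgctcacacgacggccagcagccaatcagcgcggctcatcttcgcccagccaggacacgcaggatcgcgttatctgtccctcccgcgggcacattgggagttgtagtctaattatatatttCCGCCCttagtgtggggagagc
CHKB held 2 matches to GGGCGG and 1 to CCGGAAG, and FDPS 1 of each. Both were chosen after their letters were seen.

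The 0 µM pair gave the same classes in other proportions. There 65.2% (64.8 to 65.7) of 37946 H3K27ac summits had an H3K4me1 partner, against 58.5% at 15 µM, which was lower on 22 of 23 chromosomes. With the 0 µM H3K27ac list cut to the 15 µM length by score, the 0 µM share was 65.0%. With both H3K4me1 lists trimmed to that length the order turned round, 29.0% at 0 µM and 31.6% at 15 µM, and with partners within 5 kb the shares were 98.3% and 97.6%. At 0 µM, 7.67% of 343156 H3K4me1 summits had H3K27ac, against 4.82%, lower at 15 µM on 23 of 23 chromosomes. The H3K27ac list that supplies these partners is shorter at 15 µM, 29305 against 37946 summits. This share was not taken at matched length. All chromosomes come from the same libraries, so they are not replicates. The gene-end share of H3K27ac summits with a partner was 55.4% and the distal share 67.1%. H3K27ac was at an end of 5648 genes at 0 µM and 3228 at 15 µM, from lists of unequal length. Of the 1521 genes with both marks at 15 µM, 798 (52.5%) had both at 0 µM, against 14.3% of all genes, 442 H3K27ac only, 206 H3K4me1 only and 75 neither. Of the 1707 with H3K27ac only, 895 (52.4%) were in that class at 0 µM, against 14% of all genes, and 561 had both marks. With 1 library each, dose, depth and the yield of each ChIP cannot be told apart.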

How the data were processed

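ChIP-seq summit lists of H3K27ac and H3K4me1 from Huh7 cells at 0 and 15 µM choline were used, 1 library each. The other 8 samples were not analysed here. The authors deposited 1 summit per line with a score in the layout of MACS2 summit files, read here as −log10 of a p or q value; which of them was written is not stated. Bowtie, Picard, deepTools, MACS2 and the build hg38 are named, with no versions, in the submitters' processing notes. Calling settings, use of input and depth are not given in the sources used here.

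Summits on chromosomes 1 to 22 and X were written 1-based and matched to RefSeq genes (GRCh38.p14), which come without exons, introns or UTRs, so none are given. Python 3 scripts (pandas and scipy, versions recorded with the results) counted partners, classes and windows, and gave 95% intervals by the exact Clopper-Pearson method, for counting error alone. The scripts recovered all partners and classes planted in simulated lists. Planting used only summits and gene ends over 5 kb from others, without background summits. Recovery therefore checks the counting alone, and not the crowded setting of the real lists. Named genes were the 10 highest-scoring or most summit-rich of each class, skipping neighbours within 200 kb, the 5 fullest bins, KLF5, and up to 3 list members per class in list order. Other list members were picked with their values in view. Some members counted in the lists are not named here. Members and gene lists were chosen with earlier results of these data known. Alternatives changed distances, score limits, list lengths, joining of summits within 500 bp, gene-end definitions, window and bin sizes.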

Additional observations from a re-analysis of the deposited data

Results flagged for a closer look

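Summits outside chromosomes 1 to 22, X and Y entered no comparison. The 15 µM lists held 26 of H3K27ac and 398 of H3K4me1 there, above the 3 counts that a count of 0 allows. At 0 µM the counts were 35 and 400.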

How the results depend on the processing

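No paired analysis was possible because each mark and dose had 1 library. Over 48 alternative values, 15 stayed within the counting interval or 1.5 times a count, 30 moved and 3 turned round; the cause was not tested unless the setting's construction shows it. The share of H3K27ac summits with H3K4me1 was 34.1% within 500 bp, 82.7% within 2 kb and 97.6% within 5 kb (a distance chosen after seeing the data). It was 47.3% with H3K4me1 at scores of at least 5.01, 57.8% with H3K27ac at 10 or more, and 31.6% with H3K4me1 trimmed to the H3K27ac length. The reverse share under these settings was 2.81%, 7.97%, 15.1%, 11.6%, 2.66% and 25.4%. The gene-end minus distal difference (-4.70 points) turned round to 7.42 within 2 kb and 1.98 within 5 kb. It was -12.1 within 500 bp, -20.1 with the H3K4me1 score limit and -25.4 with the trimmed list.

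Genes with both marks numbered 357 at 500 bp from the end, 3638 at 2 kb, 671 with the H3K4me1 score limit, 876 with H3K27ac at 10 or more and 224 with the trimmed list. Genes with H3K27ac only numbered 401 at 2 kb, 1083 with H3K27ac at 10 or more and 3004 with the trimmed list. Genes with H3K4me1 only numbered 4826 at 500 bp, 2761 with the score limit, 425 with the trimmed list and 5679 at transcript starts, which cover fewer genes. Bins of 100 kb without H3K27ac made up 71.3%. The CG ratio of H3K27ac-only minus both-marked promoters went from 0.059 to 0.18 with the score limit. The 15 minus 0 µM difference (-6.69 points) turned round to 2.57 with both H3K4me1 lists trimmed and was -0.70 within 5 kb, both chosen after seeing the data. Peak widths and read depth, which could separate these readings, were not analysed here.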

Other observations

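Chromosomes differed in the mix of marks at 15 µM. H3K27ac was at an end of 22.7% of the genes of chromosome 12, 21.8% of those of chromosome 6 and 5.31% of those of X, where 71.0% of 848 genes had neither mark. The number of H3K4me1 summits per H3K27ac summit ran from 8.29 on chromosome 20 to 19.2 on X, with 16.0 on chromosome 8 and 17.3 on chromosome 21. X nevertheless had the highest share of H3K27ac summits with an H3K4me1 partner, 67.7% of 486.

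H3K27ac summits without a partner lay inside a protein-coding gene more often than those with one, 68.7% against 61.4%. For H3K4me1 the order was the other way, 55.0% of summits without an H3K27ac partner and 60.1% of those with one.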
